A study of Mus musculus with 32 samples.

Results

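Zbp1 and 8 genes of necroptosis and death receptor signalling were followed in bulk RNA-seq of a mouse lung endothelial cell (EC) line, Veravec. The 9 genes were chosen by name: Zbp1, Ripk1, Ripk3, Mlkl, Casp8, Fadd, Cflar, Fas and Tnfsf10, out of 54429 gene symbols in the merged count table. All 9 passed the filter on low counts, which left 15254 genes tested. Zbp1 was selected on its siRNA-by-cytokine interaction in these same libraries, so its values are given as a description with no test, and only the other 8 genes were tested.

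In the si-dnmt groups, Dnmt1, the maintenance DNA methyltransferase, was silenced by siRNA, while the si-control groups were transfected with a control. The paper lists 2 siRNA sequences for Dnmt1 and a repeated transfection. Neither the paper nor the labels state whether these sequences were pooled or used in separate replicates. Below, the siRNAs compared are the labels si-control and si-dnmt. The ECs were then left without cytokine or given TNF (TNFα, 10 ng/mL), IFN (IFNγ, 1000 U/mL) or TNF + IFN for 16 h. Each of the 8 groups held 4 libraries, 32 in all, which the study calls biological replicates. All these libraries come from 1 cell line, and nothing in the labels says that replicates came from separate cultures or days, so the p-values measure only the spread between these libraries. Total counts ran from 17362546 to 33500030 per library. Levels are in CPM, counts scaled to a common library size with TMM factors that correct for library composition. They compare a gene between libraries, not different genes with each other. Dnmt1 was at 86.5 to 211 CPM in the 16 si-control libraries and at 5.10 to 17.3 CPM in the 16 si-dnmt libraries, so every library matched the siRNA of its label. The cytokine part of the labels is not checked by Dnmt1. Without cytokine, replicates 1 to 4 were at 90.0, 89.1, 153 and 148 CPM in si-control and at 10.3, 12.4, 6.44 and 6.53 CPM in si-dnmt. In every cytokine state, Dnmt1 in replicates 3 and 4 was higher in si-control and lower in si-dnmt than in replicates 1 and 2. The part of this difference in the results below was not tested.

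Endothelial markers were present throughout, with Cdh5 at 846 to 2880 CPM and Pecam1 at 645 to 2160 CPM, although Cldn5 fell as low as 0.116 CPM and Vwf as low as 0.862 CPM in single libraries. The 10 endothelial markers summed to 5240 to 8060 CPM in si-control and to 3180 to 4080 CPM in si-control + TNF + IFN, and to 4980 to 7340 CPM in si-dnmt and 2550 to 3790 CPM in si-dnmt + TNF + IFN, so these sums were lower with TNF + IFN under both siRNAs without overlap. Of the leukocyte markers, Ptprc, Cd3e, Itgam and Adgre1 held 0 to 3 counts in every library, and Lyz2 was at 1.21 to 132 CPM. The summed leukocyte markers, almost wholly Lyz2, lay at 43.6 to 132 CPM in si-control and at 12.7 to 71.4 CPM in si-dnmt, with overlap. With TNF + IFN they lay at 5.17 to 30.3 CPM in si-control and at 1.21 to 7.85 CPM in si-dnmt, also with overlap. The 5 pericyte and smooth muscle markers, mainly Acta2, summed to 7.68 to 26.5 CPM in si-control and to 39.3 to 183 CPM in si-dnmt. The 4 fibroblast markers, mainly Dcn, summed to 1.27 to 2.46 CPM in si-control and to 14.6 to 55.8 CPM in si-control + TNF. The 4 epithelial markers summed to at most 0.307 CPM. The part of these markers in the results below was not tested. In bulk samples, fewer cells of a type and less RNA per cell cannot be told apart. For some of the 9 genes replicates 1 and 2 stood apart from replicates 3 and 4, and the values of each pair of replicates are given beside the results that this changes most. Cflar, for example, was higher in replicates 1 and 2 in all 8 groups. A fit on 1 pair of replicates alone leaves out the spread between the pairs, so its calls below are no independent support. Such fits also called more of all genes. Between the siRNAs without cytokine they called 23.9% on replicates 1 and 2 and 36.5% on replicates 3 and 4, against 18.5% on all libraries.

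Death receptors such as FAS are cell surface proteins that, once bound by a ligand, gather the adaptor FADD and the protease caspase-8 (Casp8) and can start apoptosis. TRAIL, encoded by Tnfsf10, is a ligand of this family, and c-FLIP, encoded by Cflar, is a caspase-8-like protein that holds the complex in check. Caspase-8 also cleaves the kinases RIPK1 and RIPK3. Where RIPK3 becomes active it phosphorylates MLKL, which permeabilises the plasma membrane in necroptosis. ZBP1 is a sensor of Z-form nucleic acids that binds RIPK3, and it is known as an interferon-induced gene. No cell death and no protein was measured here.

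Casp8, Fas, Mlkl and Cflar were the members called as different between si-dnmt and si-control without cytokine in the main tests below. Zbp1 was not tested, and Ripk1, Fadd and Tnfsf10 were also called when the replicate number was added to the model. The promoter sequences of Casp8, Fas, Mlkl and Cflar are shown because Dnmt1 acts on CG dinucleotides, which are in capitals. DNA methylation was not measured in these libraries. Each line gives the 250 bases before the annotated start, 5′ to 3′ on the strand of the gene, from RefSeq on GRCm38.p6, the build of the reference and not necessarily that of the counts. The bases just after the start were found in a GENCODE M21 transcript of the gene for Casp8. For Fas, Mlkl and Cflar they were not, so these starts were not matched in that annotation. Casp8 is at chr1:58802252-58802501 (plus strand), Fas at chr19:34290409-34290658 (plus strand), Mlkl at chr8:111338206-111338455 (minus strand) and Cflar at chr1:58711241-58711490 (plus strand).
Casp8: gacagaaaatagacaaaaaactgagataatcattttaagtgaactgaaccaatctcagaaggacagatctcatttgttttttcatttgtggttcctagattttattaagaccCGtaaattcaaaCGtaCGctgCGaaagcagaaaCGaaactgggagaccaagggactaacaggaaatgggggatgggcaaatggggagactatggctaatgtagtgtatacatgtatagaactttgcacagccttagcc
Fas: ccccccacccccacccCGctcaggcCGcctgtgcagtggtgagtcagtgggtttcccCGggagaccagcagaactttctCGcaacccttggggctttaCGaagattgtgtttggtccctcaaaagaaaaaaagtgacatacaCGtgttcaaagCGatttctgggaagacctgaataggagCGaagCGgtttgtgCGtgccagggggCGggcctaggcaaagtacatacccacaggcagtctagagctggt
Mlkl: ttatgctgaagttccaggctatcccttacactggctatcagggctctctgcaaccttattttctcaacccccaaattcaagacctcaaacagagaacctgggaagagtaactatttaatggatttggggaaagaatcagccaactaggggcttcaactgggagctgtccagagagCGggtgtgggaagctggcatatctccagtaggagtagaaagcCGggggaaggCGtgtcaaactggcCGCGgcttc
Cflar: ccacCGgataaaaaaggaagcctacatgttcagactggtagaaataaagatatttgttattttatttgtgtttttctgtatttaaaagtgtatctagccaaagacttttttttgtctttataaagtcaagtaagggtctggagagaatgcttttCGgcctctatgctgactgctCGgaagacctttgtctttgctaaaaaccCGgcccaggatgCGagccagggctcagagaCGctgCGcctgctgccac

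The windows of Casp8 and Mlkl held 5 CG dinucleotides each, Cflar held 7 and Fas held 11, against a median of 6 over 32851 windows of the same length. Of the other members, Tnfsf10 held 6, Ripk3 held 8 and Fadd held 19, and the 2 windows of Ripk1 held 19 and 32. The 8 genes other than Zbp1 were found in the table, with 9 start sites. A gamma-activated sequence motif (TTCNNNGAA, both strands) was found in Fas (TTCTGGGAA, bases -93 to -85 from the start) and at 2 places in the downstream start site of Ripk1. It is held by 7.02% of all windows. An interferon-stimulated response element type motif (GAAANNGAA, held by 7.13% of windows) and an NF-kB type motif (GGNNNTTCC, held by 15.7%) were in none of the 9 windows of the members, on either strand. These matches describe letters in short windows and no more.

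Zbp1 (ENSMUSG00000027514) had its lowest level in si-control without cytokine, at 3.42, 2.75, 3.86 and 2.06 CPM in replicates 1 to 4. In si-dnmt without cytokine it was at 35.1, 38.2, 10.5 and 13.0 CPM. The libraries of the siRNAs did not overlap, and replicates 1 and 2 rose further than replicates 3 and 4. The mean of the si-control group was 3.03 ± 0.788 CPM (SD, n = 4). That of the si-dnmt group was 24.2 CPM, a ratio of 7.99 that was 11.9 over replicates 1 and 2 and 3.96 over replicates 3 and 4.

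Cytokines brought Zbp1 to far higher levels, and the gap between the siRNAs narrowed. With TNF it was at 73.7, 89.5, 71.3 and 68.8 CPM in si-control and at 128, 146, 92.5 and 90.1 CPM in si-dnmt, still without overlap. With IFN it was at 306, 351, 225 and 245 CPM in si-control and at 341, 330, 242 and 262 CPM in si-dnmt. The IFN groups overlapped, as did those with TNF + IFN, at 458, 428, 365 and 349 CPM in si-control and 438, 465, 385 and 381 CPM in si-dnmt. In the order of the 8 group means, neighbouring groups overlapped only between the siRNAs under IFN and under TNF + IFN. Of groups that were not neighbours, si-control + IFN reached 351 CPM, just above the lowest library of si-control + TNF + IFN at 349 CPM.

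On the log2 scale the si-dnmt to si-control difference of Zbp1 was 2.99 ± 0.30 (SE) without cytokine, 0.59 ± 0.27 with TNF, 0.06 ± 0.27 with IFN and 0.06 ± 0.27 with TNF + IFN. The response to TNF was 4.64 ± 0.30 in si-control and 2.25 ± 0.27 in si-dnmt. The response to IFN was 6.54 ± 0.30 and 3.61 ± 0.27, and that to TNF + IFN was 7.04 ± 0.30 and 4.11 ± 0.27. The smaller responses in si-dnmt started from a higher level, and ended at overlapping levels with IFN and with TNF + IFN but at a higher level with TNF. The interaction of the siRNA with TNF was thereby -2.40 ± 0.40, and with IFN and with TNF + IFN it was -2.93 ± 0.40 each. Fitted on replicates 1 and 2, the 3 interactions were -2.82, -3.55 and -3.54. Fitted on replicates 3 and 4, they were -1.59, -1.88 and -1.88. The TNF-by-IFN term, the departure of the combination from the sum of both single responses, was -4.14 ± 0.40 in si-control and -1.74 ± 0.38 in si-dnmt.

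**Figure D1:**
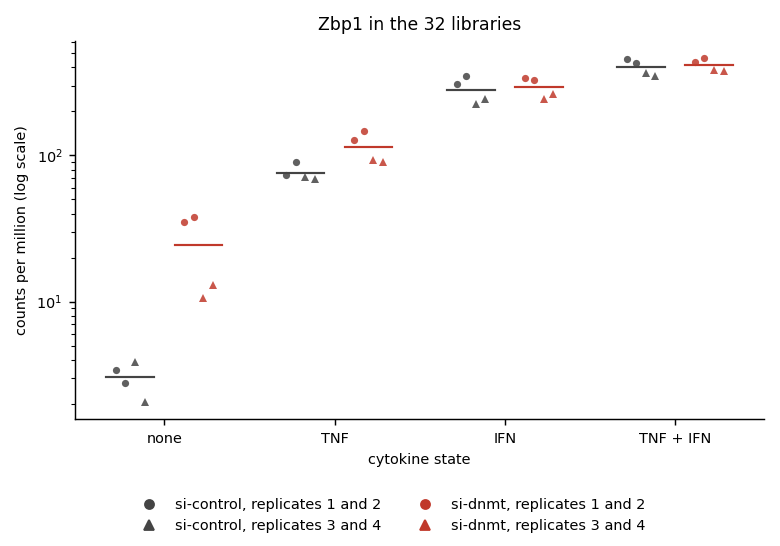
Zbp1 level of each library in CPM (log axis) by cytokine state, si-control in grey and si-dnmt in red, with circles for replicates 1 and 2, triangles for replicates 3 and 4 and a line at each group mean. The siRNAs are apart without cytokine (2.06 to 3.86 CPM against 10.5 to 38.2 CPM) and with TNF, and overlap with IFN and with TNF + IFN.

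Genes whose pattern was most like that of Zbp1 were found by Pearson correlation of log2 CPM over the 32 libraries, which share the cytokine states and the siRNA, so the values are descriptions. The 5 most alike were Psmb9 (r = 0.976), Gm12250 (0.975), Psmb8 (0.975), Psmb10 (0.975) and Ube2l6 (0.974). Psmb8, Psmb9 and Psmb10 encode the immunoproteasome subunits, and UBE2L6 is the conjugating enzyme for ISG15. All 5 had their lowest group mean in si-control without cytokine. Psmb9, the closest, went from 3.22 CPM there to 193 CPM in si-control + TNF + IFN. The si-dnmt to si-control difference without cytokine was 1.50 for Psmb9, 2.72 for Gm12250, 1.03 for Psmb8, 0.59 for Psmb10 and 0.93 for Ube2l6 on the log2 scale. Among the members, Tnfsf10 (r = 0.939) and Mlkl (0.922) were most like Zbp1, followed by Ripk1 (0.737), Fas (0.724), Cflar (0.574), Casp8 (0.537) and Fadd (0.250), and Ripk3 had r = -0.099.

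Without cytokine, 4 of the 8 tested members differed between si-dnmt and si-control at an adjusted p under 0.05 (quasi-likelihood test of edgeR, two-sided, with p-values adjusted by Benjamini-Hochberg over the genes tested). Casp8, Fas and Mlkl were higher with si-dnmt and Cflar was lower. The call rate over all genes in that comparison was 18.5%. With TNF, 3 of 8 were called, against 20.0% of all genes, and with IFN 3 of 8, against 20.3%. With TNF + IFN, 2 of 8 were called, against 17.7%. The median log2 fold change over the 8 members was 0.34 without cytokine, 0.07 with TNF, -0.03 with IFN and 0.03 with TNF + IFN, where the medians over all genes were -0.005, 0.004, -0.007 and 0.002. With the replicate number as a block, the counts were 7, 4, 5 and 4 of 8, where the block also raised the share of all genes called to 32.4%, 33.4%, 34.5% and 30.8%.

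**Figure D2:**
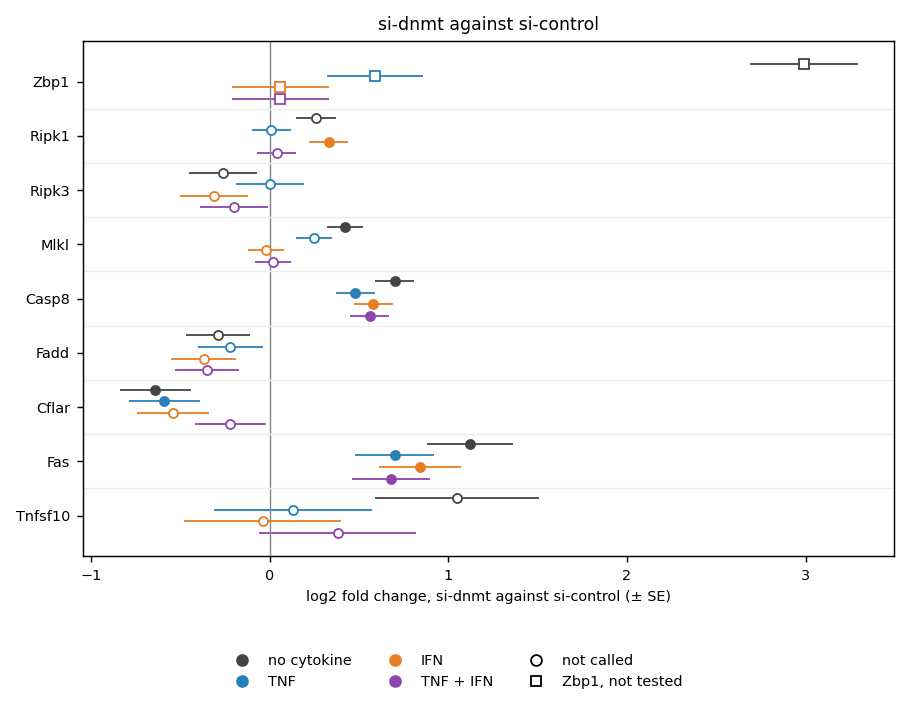
Log2 fold change of si-dnmt against si-control (x axis, ± SE) for the 9 genes in the 4 cytokine states, with filled circles for calls at an adjusted p under 0.05, open circles for tested values that were not called and open squares for Zbp1, which was not tested. Casp8 (0.48 to 0.70) and Fas (0.68 to 1.12) lie to the right of 0 in every state, Cflar lies to the left (-0.64 to -0.22), and Zbp1 moves from 2.99 to 0.06.

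Casp8, the initiator caspase of the death receptor complex, was higher with si-dnmt in all 4 cytokine states. Without cytokine it was at 29.6, 34.5, 32.2 and 34.3 CPM in si-control and at 44.1, 52.2, 57.2 and 58.5 CPM in si-dnmt. The log2 fold change was 0.70 ± 0.11 (adjusted p = 2.54e-05, edgeR). With TNF + IFN it was at 48.1, 59.4, 44.0 and 50.7 CPM in si-control and at 79.6, 81.8, 73.1 and 64.4 CPM in si-dnmt. The groups did not overlap in any of the 4 states, and the ratio of the means lay between 1.40 and 1.62. The log2 fold changes were 0.48 ± 0.11, 0.58 ± 0.11 and 0.56 ± 0.11 under TNF, IFN and TNF + IFN (adjusted p = 0.00148, 0.000262 and 0.000343, edgeR). Over replicates 1 and 2 the ratios ran from 1.32 to 1.50 and over replicates 3 and 4 from 1.45 to 1.74. No single library that was left out removed a call of Casp8 in these comparisons.

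Fas, the receptor of FAS ligand, was also higher with si-dnmt in every state. Without cytokine it was at 3.80, 5.99, 4.87 and 6.86 CPM in si-control and at 9.78, 10.6, 14.3 and 12.2 CPM in si-dnmt, without overlap. The log2 fold change was 1.12 ± 0.24 (adjusted p = 0.00129, edgeR). With TNF it was at 17.9, 18.6, 28.8 and 30.7 CPM in si-control and at 26.9, 29.4, 51.6 and 48.6 CPM in si-dnmt. These groups overlapped, because replicates 3 and 4 were above replicates 1 and 2 under both siRNAs, and within each number the si-dnmt library was the higher. The log2 fold change was 0.70 ± 0.22 (adjusted p = 0.0268, edgeR). With IFN Fas was at 10.9, 10.3, 14.2 and 13.0 CPM in si-control and at 16.2, 20.3, 26.1 and 24.0 CPM in si-dnmt, a log2 fold change of 0.84 ± 0.23 (adjusted p = 0.00944, edgeR). With TNF + IFN it was at 43.0, 45.9, 74.5 and 73.0 CPM and at 87.4, 86.1, 103 and 102 CPM, a log2 fold change of 0.68 ± 0.22 (adjusted p = 0.0330, edgeR). The groups did not overlap with IFN or with TNF + IFN. The TNF and TNF + IFN calls were lost when replicate 1 or 2 of the si-control group or replicate 3 or 4 of the si-dnmt group was left out, at adjusted p = 0.0951 to 0.129 with TNF and 0.0814 to 0.121 with TNF + IFN (edgeR). Without any 1 of these libraries the number of members called was 1 in either comparison, which was Casp8. With the replicate block Fas was called at 0.69 with TNF and 0.72 with TNF + IFN (adjusted p = 3.45e-05 and 1.56e-05, edgeR). Fas was also called in each pair of replicates alone, at 0.62 and 0.75 with TNF and at 0.96 and 0.47 with TNF + IFN.

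Cflar, the inhibitor of caspase-8 in the complex, moved the other way. Without cytokine it was at 250, 247, 184 and 200 CPM in si-control and at 167, 167, 117 and 115 CPM in si-dnmt. Every si-dnmt library was below every si-control library, with a log2 fold change of -0.64 ± 0.20 (adjusted p = 0.0220, edgeR). With TNF Cflar was at 320, 351, 289 and 247 CPM in si-control and at 232, 253, 157 and 160 CPM in si-dnmt, a log2 fold change of -0.59 ± 0.20 (adjusted p = 0.0338, edgeR). Both calls were lost without replicate 1 or 2 of the si-control group or without replicate 3 or 4 of the si-dnmt group, at adjusted p = 0.0592 to 0.0860 without cytokine and 0.0736 to 0.126 with TNF (edgeR). With the replicate block both were called, at -0.65 and -0.61 (adjusted p = 1.51e-07 and 4.34e-07, edgeR). Cflar was also called in each pair of replicates alone, at -0.57 and -0.73 without cytokine and at -0.47 and -0.76 with TNF. With IFN it was at 361, 325, 265 and 251 CPM in si-control and at 231, 267, 167 and 161 CPM in si-dnmt, where a single si-dnmt library reached into the si-control range. The log2 fold change was -0.54 ± 0.20 (adjusted p = 0.0502, edgeR), and it was called with the replicate block (-0.56, adjusted p = 1.85e-06) and by DESeq2 (-0.54, adjusted p = 0.0387). With TNF + IFN it was at 594, 645, 512 and 487 CPM in si-control and at 576, 592, 389 and 360 CPM in si-dnmt, and was not called (-0.22 ± 0.20, adjusted p = 0.488, edgeR). That value was called with the replicate block (-0.25, adjusted p = 0.0121). In each of the 4 states, the si-dnmt library was the lower in all 4 same-number pairs.

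Fadd, the adaptor between the receptor and caspase-8, was measured at 7.95 to 18.1 CPM and was called in no siRNA comparison. Without cytokine it was at 13.8, 14.1, 11.0 and 10.3 CPM in si-control and at 11.6, 11.6, 8.08 and 9.03 CPM in si-dnmt. The groups overlapped in all 4 states, and the log2 fold change ran from -0.37 to -0.22, with an SE of 0.18. With the replicate block Fadd was called lower in 3 states, at -0.29, -0.37 and -0.35 without cytokine, under IFN and under TNF + IFN (adjusted p = 0.0476, 0.0126 and 0.0195, edgeR).

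Mlkl, the executor of necroptosis, was higher with si-dnmt without cytokine. It was at 73.7, 74.2, 95.9 and 93.5 CPM in si-control and at 105, 112, 118 and 118 CPM in si-dnmt. The groups did not overlap, and the log2 fold change was 0.42 ± 0.10 (adjusted p = 0.00240, edgeR). With TNF it was at 158, 172, 212 and 199 CPM in si-control and at 208, 227, 221 and 224 CPM in si-dnmt, with a single pair of libraries across the groups out of order (0.25 ± 0.10, adjusted p = 0.0713, edgeR). The TNF value was called with the replicate block (0.25, adjusted p = 0.0448) and without replicate 3 of si-control + TNF (0.32, adjusted p = 0.0309). With IFN and with TNF + IFN the groups overlapped, at log2 fold changes of -0.02 ± 0.10 (95% interval -0.22 to 0.17) and 0.02 ± 0.10 (-0.18 to 0.21). Mlkl, like Zbp1, had its larger siRNA differences in the states where its level was low. This was not particular to Mlkl, since the differences of Casp8, Fas, Cflar and Tnfsf10 were also largest in size without cytokine. Those of Ripk1, Ripk3 and Fadd were largest in size with IFN. For Mlkl the siRNA-by-IFN term was -0.45 ± 0.14 and the siRNA-by-(TNF + IFN) term -0.41 ± 0.14, and neither was called (adjusted p = 0.674 and 0.235, edgeR). Fitted on replicates 1 and 2 both were called, at -0.66 and -0.61 (adjusted p = 0.00195 and 0.00262, edgeR), and on replicates 3 and 4 they were -0.26 and -0.22 and not called.

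Ripk1, the kinase shared by survival, apoptosis and necroptosis signalling, was called with the siRNA in 1 of the 4 states, under IFN. There it was at 137, 135, 108 and 102 CPM in si-control and at 165, 168, 144 and 131 CPM in si-dnmt. The groups overlapped by the lowest si-dnmt library, and the log2 fold change was 0.33 ± 0.11 (adjusted p = 0.0281, edgeR). The call was lost without replicate 3 or 4 of si-control + IFN or replicate 1 or 2 of si-dnmt + IFN (adjusted p = 0.0873 to 0.109) and with no filter on low counts (adjusted p = 0.0556). It was kept with the replicate block (0.33, adjusted p = 0.00309, edgeR) and in each pair of replicates alone (0.28 and 0.38). Without cytokine Ripk1 was at 99.5, 118, 78.8 and 86.0 CPM in si-control and at 124, 119, 106 and 109 CPM in si-dnmt (0.26 ± 0.11, adjusted p = 0.0924, edgeR). This value was called with the replicate block (0.27, adjusted p = 0.0160) and without replicate 2 of si-control (0.38, adjusted p = 0.0138). With TNF (95% interval -0.21 to 0.23) and with TNF + IFN (-0.18 to 0.26) the siRNAs overlapped.

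Ripk3, the kinase that activates MLKL, was scarce in every group. It held 3.04 to 6.24 CPM over the 32 libraries. Without cytokine it was at 4.78, 4.50, 5.71 and 5.38 CPM in si-control and at 4.00, 3.72, 4.57 and 4.76 CPM in si-dnmt. All 8 group means lay between 3.86 and 5.22 CPM, and each overlapped with the next in order. Ripk3 was called in none of the 15 comparisons, with log2 fold changes between siRNAs from -0.31 to 0.00 and an SE of 0.19.

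Tnfsf10, which encodes the ligand TRAIL, was at 10.5, 7.79, 12.2 and 12.5 CPM in si-control and at 26.3, 30.3, 15.1 and 17.2 CPM in si-dnmt without cytokine. The groups did not overlap, but the ratio of the means was 3.11 over replicates 1 and 2 and 1.31 over replicates 3 and 4. The log2 fold change was 1.05 ± 0.46 (adjusted p = 0.118, edgeR) and was called with the replicate block (0.89, adjusted p = 0.00531) and in each pair of replicates alone (1.64 and 0.38). With TNF it was at 91.4, 104, 29.2 and 28.6 CPM in si-control and at 107, 87.9, 39.1 and 44.3 CPM in si-dnmt, with overlap. With TNF + IFN it was at 304, 291, 112 and 123 CPM in si-control and at 374, 339, 178 and 187 CPM in si-dnmt, also with overlap. In every cytokine-treated group, replicates 1 and 2 were above replicates 3 and 4, by more than the siRNAs differed. Fitted on replicates 3 and 4, the siRNA difference was called under TNF at 0.53 and under TNF + IFN at 0.63 (adjusted p = 0.000109 and 3.97e-06, edgeR). In replicates 1 and 2 it was not called in these states.

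**Figure D3:**
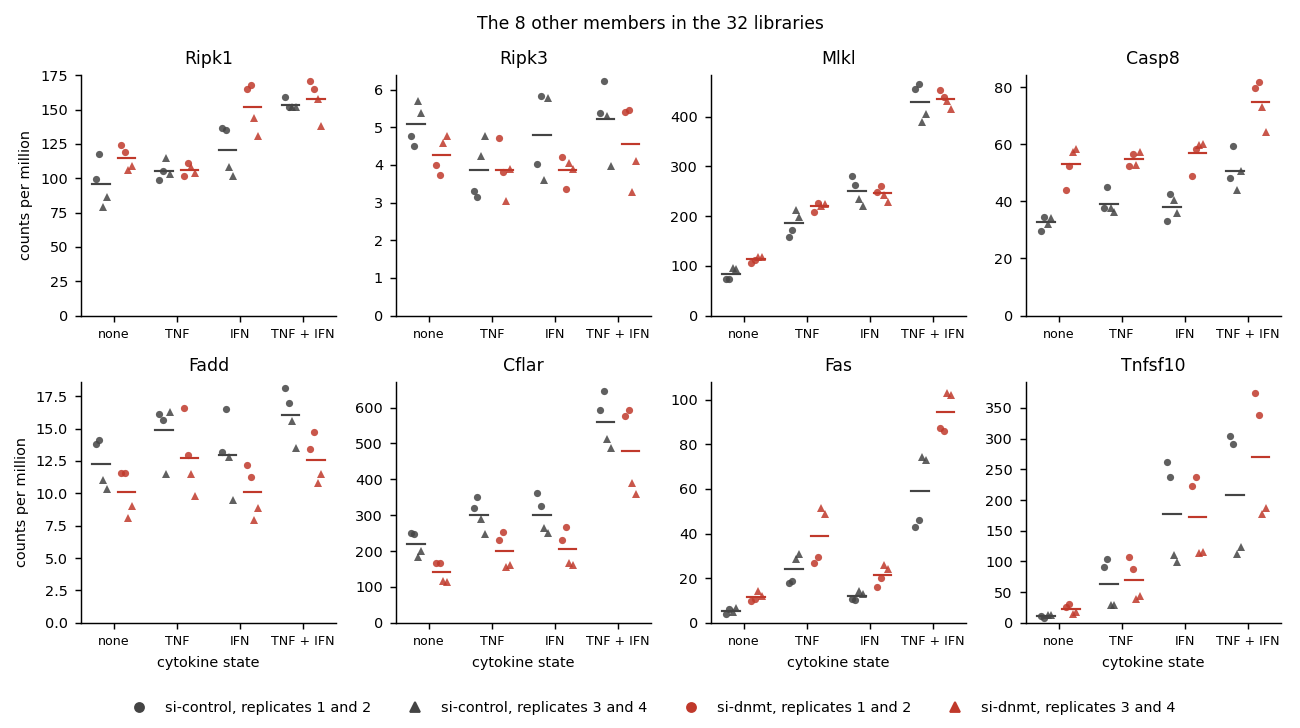
Level in CPM (linear axes from 0) of the 8 other members in each of the 32 libraries by cytokine state, si-control in grey and si-dnmt in red, with circles for replicates 1 and 2, triangles for replicates 3 and 4 and a line at each group mean. The siRNAs stay apart in every state for Casp8, Ripk3 stays between 3.04 and 6.24 CPM, and replicates 1 and 2 of Tnfsf10 lie above replicates 3 and 4 in every cytokine-treated group.

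The cytokine comparisons asked how far each gene rose from its level without cytokine under the same siRNA. In si-control, 3 of the 8 tested members were called with TNF, against 30.8% of all genes. With IFN 4 of 8 were called, against 14.5%, and with TNF + IFN 6 of 8, against 45.2%. In si-dnmt the counts were the same, 3 of 8 with TNF against 21.0% of all genes, 4 of 8 with IFN against 9.01%, and 6 of 8 with TNF + IFN against 40.2%. Every call was a rise. The median over the 8 members was 0.36 with TNF, 0.40 with IFN and 1.02 with TNF + IFN in si-control, and 0.43, 0.48 and 1.12 in si-dnmt, on the log2 scale, where the medians over all genes lay between -0.009 and 0.007. With the replicate block the counts were 6, 5 and 7 of 8 in si-control and 5, 5 and 7 of 8 in si-dnmt, where the block also raised the share of all genes called to 43.4%, 25.4% and 55.1% in si-control and to 34.3%, 19.0% and 51.7% in si-dnmt. The groups of a comparison share their untreated libraries with the other cytokine comparisons of that siRNA.

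Mlkl, Fas and Tnfsf10 rose in all 6 cytokine comparisons, and in none of these did the treated and untreated libraries overlap. Mlkl went from 84.3 CPM in si-control to 185 CPM with TNF, 249 CPM with IFN and 429 CPM with TNF + IFN, log2 rises of 1.14 ± 0.10, 1.56 ± 0.10 and 2.35 ± 0.10. The adjusted p was 8.10e-10, 5.21e-13 and 6.53e-17 (edgeR). In si-dnmt the rises were 0.96 ± 0.10, 1.12 ± 0.10 and 1.94 ± 0.10. The TNF + IFN libraries of both siRNAs, at 390 to 465 CPM, were above all other libraries for this gene.

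Fas had a larger point estimate with TNF than with IFN, a difference that was not tested. In si-control its group mean went from 5.38 to 24.0 CPM with TNF, 12.1 CPM with IFN and 59.1 CPM with TNF + IFN. The log2 rises were 2.16 ± 0.24 (adjusted p = 9.46e-08), 1.17 ± 0.24 (0.000915) and 3.46 ± 0.23 (4.80e-12, edgeR). In si-dnmt they were 1.74 ± 0.23, 0.89 ± 0.23 and 3.01 ± 0.23, from a start of 11.7 CPM to 94.6 CPM with TNF + IFN. The sum of the TNF and IFN rises was close to the combined rise in si-control, and the TNF-by-IFN term was 0.13 ± 0.33 (95% interval -0.54 to 0.80).

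The size of the Tnfsf10 rises differed between the pairs of replicates. In si-control it went from 10.7 CPM to 63.4 CPM with TNF, 177 CPM with IFN and 207 CPM with TNF + IFN, log2 rises of 2.56 ± 0.45 (adjusted p = 0.000138), 4.04 ± 0.45 (4.89e-07) and 4.27 ± 0.45 (6.35e-08, edgeR). The ratio to the untreated mean with TNF + IFN was 19.3, and it was 32.6 over replicates 1 and 2 and 9.53 over replicates 3 and 4. In si-dnmt the log2 rises were 1.65 ± 0.44, 2.95 ± 0.44 and 3.60 ± 0.44. There the ratio with TNF + IFN was 12.6 over replicates 1 and 2 and 11.3 over replicates 3 and 4.

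Ripk1 was called with IFN and with TNF + IFN and not with TNF. In si-control the log2 rise was 0.34 ± 0.11 with IFN (adjusted p = 0.0336, edgeR) and 0.69 ± 0.11 with TNF + IFN (6.94e-06). The IFN call in si-control was lost with RLE size factors (adjusted p = 0.0511), with no filter on low counts (0.0642), and without replicate 3 or 4 of si-control or replicate 1 or 2 of si-control + IFN (0.139 to 0.200). In si-dnmt the rises were 0.41 ± 0.11 with IFN and 0.47 ± 0.11 with TNF + IFN. The IFN call there was lost without replicate 3 of si-dnmt or replicate 1 or 2 of si-dnmt + IFN (adjusted p = 0.0529 to 0.0638, edgeR). With the replicate block the IFN calls were kept, at adjusted p = 0.00371 in si-control and 0.000844 in si-dnmt (edgeR). They were also kept in each pair of replicates alone.

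Casp8 and Cflar were called with TNF + IFN. Casp8 rose by 0.63 ± 0.11 in si-control (adjusted p = 1.76e-05) and by 0.49 ± 0.11 in si-dnmt (0.000381, edgeR), and with TNF it was called in si-control with the replicate block (0.26, adjusted p = 0.0203). Cflar rose by 1.34 ± 0.20 in si-control (adjusted p = 2.73e-06) and by 1.76 ± 0.20 in si-dnmt (4.31e-08, edgeR). With TNF or IFN alone Cflar had values of 0.45 to 0.55 that were not called (adjusted p = 0.0678 to 0.140) and that were all called with the replicate block (0.45 to 0.54). Without replicate 3 or 4 of si-dnmt + TNF, Cflar was called with TNF in si-dnmt (adjusted p = 0.0418 and 0.0426), and without replicate 4 of si-dnmt + IFN it was called with IFN (0.0492, edgeR). Fadd had values of 0.00 to 0.39 that were not called, and with the replicate block it was called with TNF (0.28 and 0.34) and with TNF + IFN (0.39 and 0.33) under both siRNAs.

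**Figure D4:**
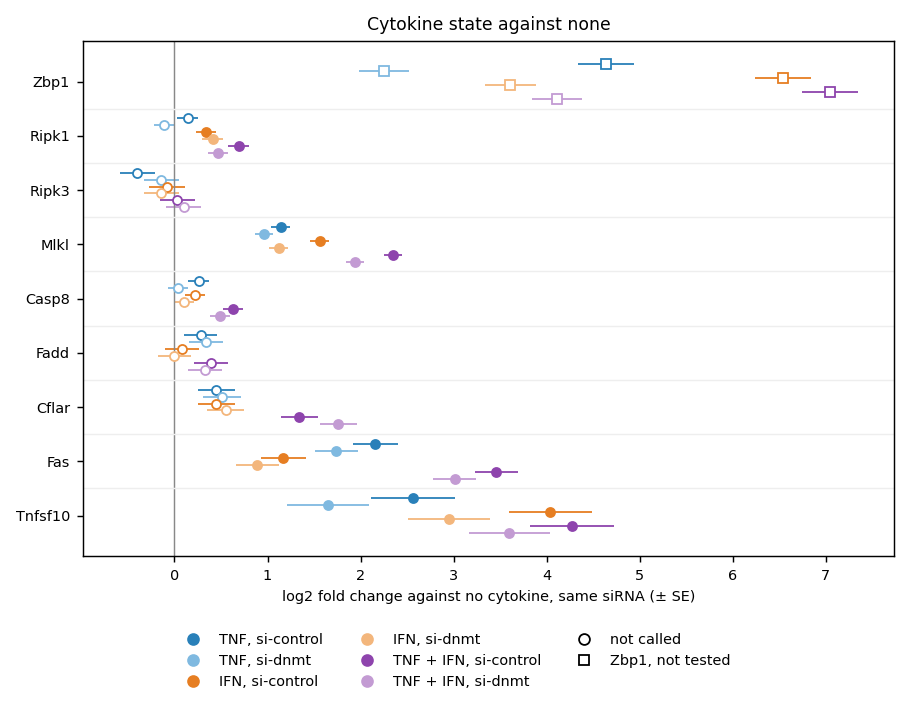
Log2 fold change against no cytokine under the same siRNA (x axis, ± SE) for the 9 genes with TNF, IFN and TNF + IFN, darker for si-control and lighter for si-dnmt, with filled circles for calls at an adjusted p under 0.05, open circles for tested values not called and open squares for Zbp1, which was not tested. Mlkl, Fas and Tnfsf10 are filled in all 6 comparisons, Ripk3 stays between -0.40 and 0.10, and the responses of Zbp1 run from 2.25 to 7.04.

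The interactions asked whether the cytokine response differed between the siRNAs, and 0 of the 8 tested members were called in any of the 3 (edgeR). At an unadjusted p under 0.05 there were 0 with TNF, 1 with IFN and 1 with TNF + IFN, and DESeq2 also called 0 in each. Over all genes, 0.0328% were called for siRNA-by-TNF, 0.0459% for siRNA-by-IFN and 0.531% for siRNA-by-(TNF + IFN). The member with the largest negative estimates after Zbp1 was Tnfsf10, at -0.91 ± 0.63, -1.09 ± 0.63 and -0.67 ± 0.63, whose intervals all reach past 0. Fitted on replicates 1 and 2, the Tnfsf10 terms were -1.64, -1.77 and -1.38 and all were called. Fitted on replicates 3 and 4, those for TNF and TNF + IFN were 0.14 and 0.24. Cflar had a siRNA-by-(TNF + IFN) term of 0.42 ± 0.28 that was called with the replicate block (0.40, adjusted p = 0.0269). The Casp8 terms lay between -0.22 and -0.12, each with an SE of 0.15.

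For TNF-by-IFN, 0 of 8 members were called in si-control, against 1.06% of all genes, and 0 of 8 in si-dnmt, against 0.354% (edgeR). At an unadjusted p under 0.05 there were 2 in each, and DESeq2 called 1 in si-control and 0 in si-dnmt. The Tnfsf10 term in si-control was -2.33 ± 0.63 (adjusted p = 0.0752, edgeR), which was not called. It was -3.18 on replicates 1 and 2 and -1.06 on replicates 3 and 4, and both were called (adjusted p = 3.94e-11 and 1.59e-05, edgeR). These fits on 1 pair called 10.6% and 4.35% of all genes. The Tnfsf10 term was also called by DESeq2 (-2.34, adjusted p = 0.0101), with no filter on low counts (0.0449), with the replicate block (-2.04, adjusted p = 0.000142) and without replicate 3 or 4 of si-control + TNF (0.0401 and 0.0364). Cflar had positive terms of 0.44 ± 0.28 in si-control and 0.71 ± 0.28 in si-dnmt, which were called only with the replicate block (0.45, adjusted p = 0.0129, and 0.71, adjusted p = 0.000129) and on replicates 3 and 4, and for si-dnmt also on replicates 1 and 2.

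Other genes of these pathways were counted from 3 fixed lists of 47 genes, of which 46 were tested, since Fasl, the ligand of FAS, was removed by the filter on low counts. Without cytokine, 8 were higher and 5 lower with si-dnmt, against 18.5% of all genes called in either direction. With TNF + IFN 12 were higher and 4 lower, against 17.7% of all genes. With the replicate block the 13 called without cytokine became 21, where 32.4% of all genes were called. In si-control, TNF + IFN raised 21 and lowered 8, against 45.2% of all genes. The same shares apply to the counts of the single lists.

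In the death receptor complex list (17 tested), si-dnmt without cytokine raised Tnfaip3, which encodes the ubiquitin-editing protein A20 (1.22 ± 0.17), and Map3k7 (TAK1, 0.27 ± 0.08). It lowered the deubiquitinase Cyld (-0.90 ± 0.16) and the adaptor Tradd (-0.58 ± 0.15). With TNF + IFN, si-dnmt raised 6 and lowered 2 of the 17 genes, against 17.7% of all genes called. Tnfaip3 was again higher (0.72 ± 0.17) and Cyld lower (-0.76 ± 0.16), and Otulin was lower (-0.22 ± 0.07). Tnf itself had 1 to 5 counts per library in si-control + TNF + IFN and 38 to 93 counts in si-dnmt + TNF + IFN (4.50 ± 0.70). It had 0 to 1 counts in si-control, so no fold is given for its rise with TNF + IFN in si-control. TNF + IFN in si-control raised 9 and lowered 2 genes of this list, with Tnfaip3 up by 3.53 ± 0.17, Tnfrsf10b, a TRAIL receptor, at -0.64 ± 0.12 and Tnfrsf1a at -0.30 ± 0.11.

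Among caspases and BCL2 family genes (17 tested), si-dnmt without cytokine raised 3 genes and lowered 2, among them the pore former Bak1 (0.67 ± 0.07), which was higher, and the caspase inhibitor Xiap (-0.75 ± 0.26). With TNF + IFN it raised 4 and lowered 0, led by Apaf1 (0.57 ± 0.14) and Bak1 (0.43 ± 0.07), a count near the 17.7% of all genes called. TNF + IFN in si-control raised 6 and lowered 6, with Bid, the caspase-8 substrate that links death receptors to mitochondria, at 1.63 ± 0.15, and Bcl2l11, which encodes the pro-apoptotic protein BIM, at -0.96 ± 0.28.

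Among partners of Zbp1 and necroptosis (12 tested), si-dnmt without cytokine raised Tlr3, a sensor of double-stranded RNA (0.93 ± 0.17), and Adar, the RNA editing enzyme whose long isoform binds Z-RNA (0.47 ± 0.13), and lowered Vps4b, a member of the machinery that repairs membranes (-0.54 ± 0.11). With TNF + IFN, Tlr3 (0.67 ± 0.17) and Trpm7 (0.41 ± 0.10) were higher and Itpk1 (-0.68 ± 0.13) and Vps4b (-0.50 ± 0.11) lower. TNF + IFN in si-control raised 6 and lowered 0, a count near the 45.2% of all genes called, led by the inositol phosphate kinase Itpk1 (2.00 ± 0.13) and Tlr3 (1.78 ± 0.17).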

How the data were processed

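RNA-seq libraries of 8 groups with 4 replicates each were deposited as whole gene counts. Per the labels, the authors trimmed reads with cutadapt 4.9, checked them with FastQC 0.12.1 and MultiQC 1.27.1 and counted with featureCounts, and the notes also name DESeq2. The deposited counts are not normalized. For the aligner, build, annotation and strand setting: not given in the sources used here. In GENCODE M21, Fadd overlaps Faddos, Mlkl overlaps Gm45712, and Ripk1 overlaps Gm17083 and Serpinb6a, each on the opposite strand. Without strand, reads of these overlaps cannot be told apart. Casp8 and Gm37760, Fas and Gm27818, and Ripk1 and Gm17084 overlap on the same strand, where a strand setting would not separate reads. A group labelled si-dnmtl + TNF was read as si-dnmt + TNF.

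The per-library counts were analysed with edgeR 4.0.16 in R 4.3.3: filterByExpr at a minimum count of 10, TMM factors, 1 model of 8 group means over 32 libraries, two-sided quasi-likelihood F tests, Benjamini-Hochberg adjustment over 15254 genes and calls under 0.05. Fold changes carry Wald SEs. Alternatives were RLE size factors, DESeq2 1.42.0, no low-count filter, the replicate number as a block, replicates 1 and 2 or 3 and 4 alone, and leaving out each library. Named genes are the 9 members, the 5 genes most correlated with Zbp1 and, per list, the 2 called genes with the largest change each way in 3 comparisons. Some genes that this rule or the marker lists name are not reported here. The members and lists were chosen with earlier results of these data known. Libraries of the same number deviated from their group means together (r = 0.30 to 0.62 over 112 pairs), as did the other number of the same pair 1 and 2 or 3 and 4 (0.21 to 0.56), against -0.59 to -0.24 otherwise. The numbers come from the labels, which name no day or batch. Libraries of a group differed by more than counting noise (chi-square per degree of freedom at least 3.63).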

Additional observations from a re-analysis of the deposited data

Results flagged for a closer look

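In 3 of 72 sets of 4 libraries (9 genes in 8 groups), a library lay far from the others of its group by Dixon's test, where chance marks about 1 in 20. Ripk1 in si-control + TNF + IFN was at 159 CPM in replicate 1 and at 152 CPM in each of the other replicates. Casp8 in si-dnmt + IFN was at 49.0 CPM in replicate 1 and at 58.4 to 60.0 CPM in the others. Fadd in si-control + TNF was at 11.5 CPM in replicate 3 and at 15.7 to 16.3 CPM in the others.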

How the results depend on the processing

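The replicate block moved the number of members called to 7 for the siRNA without cytokine, 5 with IFN and 4 with TNF + IFN, to 6 for TNF in si-control and 5 in si-dnmt, and to 1 for siRNA-by-(TNF + IFN), 2 for TNF-by-IFN in si-control and 1 in si-dnmt. Of all genes, the block called 4.18%, 4.23% and 1.82% in the last 3. The paired calls that changed are given in the report, and the block changed no other call. In replicates 1 and 2 alone the number was 5 for TNF under either siRNA, 1, 2 and 3 for the interactions of the siRNA with TNF, IFN and TNF + IFN, and 2 and 3 for TNF-by-IFN in si-control and si-dnmt. The shares of all genes called there were 37.2% and 35.3%, then 1.97%, 1.80% and 4.86%, then 10.6% and 4.80%. In replicates 3 and 4 alone it was 4 for the siRNA with TNF + IFN, 5 for TNF in si-control, 1 and 2 for the interactions with TNF and TNF + IFN, and 2 for TNF-by-IFN under each siRNA. The shares of all genes called were 36.2%, 44.4%, 8.04% and 11.8%, then 4.35% and 2.09%. DESeq2 and no low-count filter each gave 1 for TNF-by-IFN in si-control, with 1.85% and 0.417% of all genes called. DESeq2 also called Mlkl for the siRNA with TNF (0.25, adjusted p = 0.0494) and Casp8 for TNF in si-control (0.27, adjusted p = 0.0486). Leaving out single libraries gave 1 to 4 for the siRNA with TNF, 1 to 2 with TNF + IFN and 0 to 1 for TNF-by-IFN in si-control. Zbp1 interactions were -3.55 with IFN and -3.54 with TNF + IFN on replicates 1 and 2. On replicates 3 and 4 they were -1.59, -1.88 and -1.88. The cause of these changes was not tested.

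Values that changed sign were not called in the fit to all libraries. Apart from the Tnfsf10 interactions, they were at most 0.26 in size there, the value of Ripk3 for siRNA-by-TNF (SE 0.26). In replicates 3 and 4 alone, Ripk1 was at -0.04 for the siRNA with TNF and with TNF + IFN and at -0.00083 for siRNA-by-IFN. There, for the siRNA with IFN, Mlkl was at 0.05 and Tnfsf10 at 0.12. Ripk3 was at -0.27 and -0.33 for TNF + IFN in si-control and si-dnmt and at -0.13, 0.01 and -0.06 in the interactions. Casp8 was at -0.08 for TNF in si-dnmt, Fadd at -0.02 for IFN in si-dnmt, -0.06 for siRNA-by-TNF and 0.08 for TNF-by-IFN in si-dnmt, and Cflar at -0.02 for siRNA-by-TNF. Tnfsf10 was at 0.14 and 0.24 for the interactions with TNF and TNF + IFN. In replicates 1 and 2 alone, Ripk3 was at 0.40 for the siRNA with TNF, 0.11 for IFN in si-control and 0.15 for TNF in si-dnmt, Tnfsf10 at -0.01 for the siRNA with TNF, Mlkl at -0.05 for the siRNA with TNF + IFN and Ripk1 at -0.07 for TNF in si-control. With RLE size factors and DESeq2, Ripk3 was at 0.00032 and 0.0007 for the siRNA with TNF, and Fadd was at -0.03 for IFN in si-dnmt and 0.01 for TNF-by-IFN in si-dnmt with both. With the replicate block, Fadd was at -0.00024 for IFN in si-dnmt.

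Ranges over the left-out libraries that crossed 0 were, for the siRNA with TNF, -0.02 to 0.05 (Ripk1), -0.11 to 0.12 (Ripk3) and -0.15 to 0.48 (Tnfsf10). With IFN they were -0.04 to 0.18 (Zbp1), -0.08 to 0.03 (Mlkl) and -0.24 to 0.20 (Tnfsf10), and with TNF + IFN -0.02 to 0.06 (Mlkl). In si-control they were -0.21 to 0.01 (Ripk3) and -0.08 to 0.20 (Fadd) for IFN, and -0.07 to 0.13 (Ripk3) for TNF + IFN. In si-dnmt they were -0.03 to 0.09 for TNF (Casp8), -0.10 to 0.10 for IFN (Fadd) and -0.0027 to 0.22 for TNF + IFN (Ripk3). For siRNA-by-TNF they were -0.09 to 0.17 (Fadd) and -0.08 to 0.15 (Cflar). For siRNA-by-IFN they were -0.04 to 0.15 (Ripk1), -0.18 to 0.05 (Ripk3), -0.20 to 0.05 (Fadd) and -0.05 to 0.20 (Cflar). For siRNA-by-(TNF + IFN) they were -0.05 to 0.19 (Ripk3) and -0.15 to 0.02 (Fadd), and for TNF-by-IFN -0.09 to 0.19 in si-control and -0.12 to 0.13 in si-dnmt (Fadd).

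Depth limits Ripk3, which held 57 to 137 counts per library and whose siRNA difference without cytokine had a 95% interval of -0.64 to 0.12.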
